A study of Mus musculus with 10 samples.

Results

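Enzymes that write and erase chemical marks on histones and on DNA were followed at the RNA level in mouse dendritic cells, which take up antigen and present it to T cells. The cells were wild-type or deficient in Ptbp1, the gene of an RNA-binding protein, and no protein was measured. The 61 genes, of 19178 gene rows in the count table, were chosen by symbol alone: every gene named Kdm, Kmt, Setd, Ezh, Hdac, Dnmt or Kat with a family number or letter, plus Tet1, Tet2 and Tet3. They comprised 3 Dnmt, 3 Tet, 2 Ezh, 8 Kmt, 10 Setd, 16 Kdm, 8 Kat and 11 Hdac genes, all of them protein coding and all retained by the filter on low counts. Symbols of these families that stood for antisense transcripts or a pseudogene (Dnmt3aos, Kdm6bos and Dnmt3l-ps1) and the katanin genes did not meet the rule, and Dnmt3c, Dnmt3l, Kdm4d and Kdm5d were not analysed here.

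Polyadenylated RNA was sequenced from dendritic cells at 8 to 10 weeks, in 5 Ptbp1-deficient and 5 wild-type (WT) libraries. How Ptbp1 was removed, the strain, the sex, the tissue of origin and the sorting of the cells were not given in the sources used here, nor whether the libraries of a group came from different mice. The p-values therefore rest on library-to-library spread, which may be technical. Levels are in CPM, counts scaled to library size with TMM factors, and means carry the SD of 5 libraries. A gene is said to have risen or fallen where edgeR's quasi-likelihood test, adjusted by Benjamini-Hochberg over all 18248 genes tested, gave an adjusted p under 0.05. Fold changes are deficient over WT.

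Counts in genes totalled 61759378 to 92697815 in a deficient library, against 50516163 to 66153758 in a WT library. Every member held at least 245 counts in each library. Ptbp1 stood at 73.2 to 75.7 CPM in the deficient libraries and 259 to 312 CPM in the WT libraries, so the RNA of the targeted gene matched the labels. In the deposited FPKM values, scaled to length and depth, Ptbp1 averaged 28.7 ± 6.02 in the deficient group and 65.3 ± 2.80 in WT. Dendritic cell markers (Itgax, Flt3, Zbtb46, Ciita, Cd74 and MHC class II genes) rose for 3 of 8 genes and summed to 40021 to 43470.4 CPM in the deficient libraries and 33854 to 41649 CPM in the WT libraries. Macrophage markers fell for 10 of 16 genes and summed to 459.8 to 1120.4 CPM in the deficient libraries and 1451 to 4167 CPM in the WT libraries, where WT replicates 1 and 5 were highest. B cell markers fell for 8 of 10 and summed to 112 to 135 CPM in the deficient libraries and 144 to 684 CPM in the WT libraries. NK cell markers rose for 6 of 9, with Klrd1 falling, and summed to 233 to 325 CPM in the deficient libraries and 132 to 159.8 CPM in the WT libraries. Markers of cDC1 cells such as Xcr1 rose for 8 of 9 genes and those of cDC2 cells such as Clec10a fell for 8 of 8. Of 8 T cell, 7 neutrophil and 6 erythroid markers only Cd4 passed, with a fall. Cd4 averaged 248 CPM over the deficient libraries and 333 CPM over the WT libraries. The group means of the other T cell markers were 0.583 to 23.1 CPM, and which cells the Cd4 RNA came from was not tested. For comparison, 21.9% of all genes tested rose and 23.1% fell. WT replicate 5 stood apart for neutrophil markers, at 682 CPM against 45.4 to 92.2 CPM in the other WT libraries, and for B cell markers, at 684 CPM against 144 to 259 CPM. No marker was at 0 in any library, but every deposited gene row holds at least 2 counts in each library, so this could not have been otherwise. In bulk RNA, fewer cells of one type and less RNA per cell cannot be told apart.

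The enzymes act in opposing pairs. DNA methyltransferases add methyl groups to cytosine and TET enzymes oxidize them. Many enzymes of the Kmt, Setd and Ezh families, though not all, write histone methylation that Kdm demethylases remove. Kat acetyltransferases add the acetyl groups that Hdac deacetylases take off. In dendritic cells such marks are known to accompany lineage choice and the induction of inflammatory genes, and marks written during DNA replication, such as maintenance DNA methylation, are tied to cell division.

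Of the 61 members, 33 fell, 13 rose and 15 did not pass the test. That is 54.1% of the members falling and 21.3% rising, against 23.1% and 21.9% of all 18248 genes tested. The median log2 fold change of the members was -0.17, and that of all genes tested was -0.026. Most changes were small: beyond 1.5-fold, only Hdac11 and Hdac9 rose and only Kdm5b, Kmt5c and Tet1 fell. These are 3.28% and 4.92% of the members, against 7.23% and 11.1% of all genes tested. The 5 deficient libraries did not overlap the 5 WT libraries for 36 members (59.0%, against 33.4% of all genes tested). Of the 61 members 26 were lower in the deficient libraries without overlap (16.2% of all genes tested) and 10 higher (17.2%). Among the 9217 genes at least as abundant and with exons as long as the lowest members, 44.9% did not overlap.

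**Figure D1:**
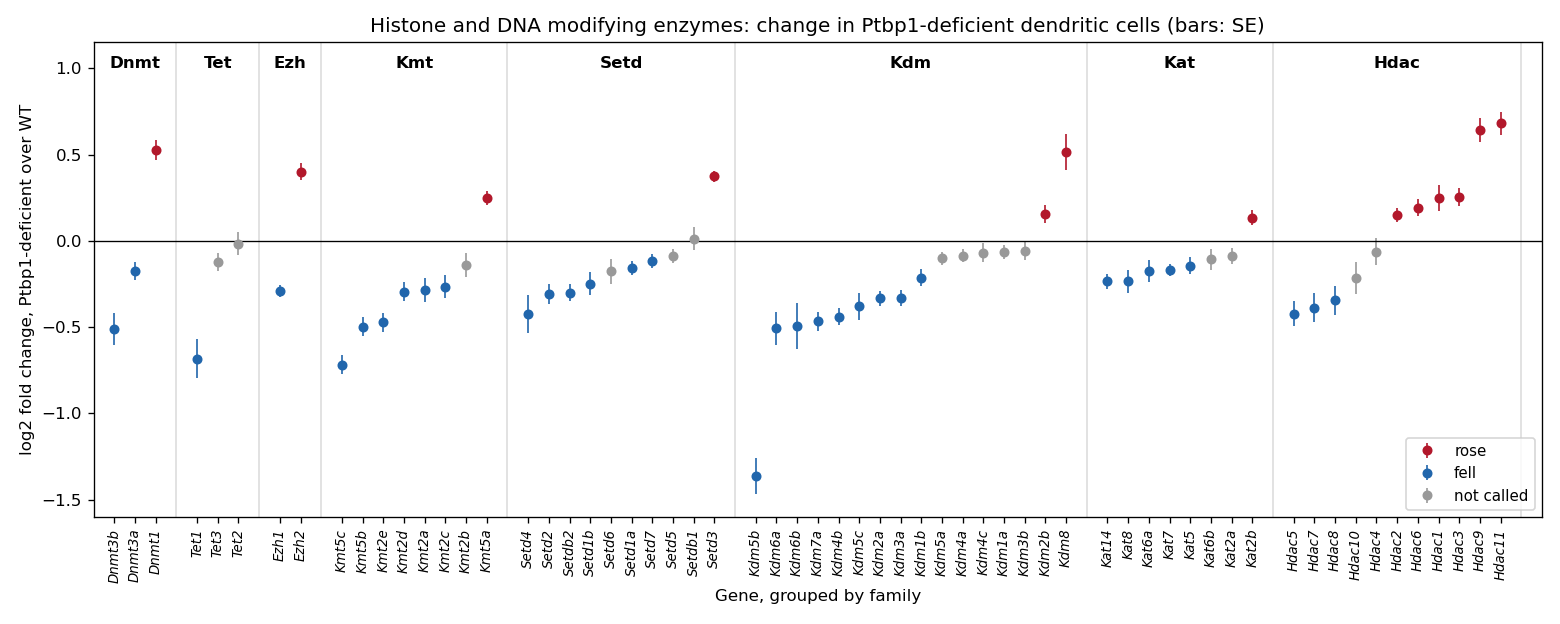
Log2 fold change (deficient over WT) of each of the 61 members, grouped by family, with the SE from the edgeR fit as bars; red rose, blue fell and grey was not called. Kdm5b lies lowest at -1.36 and Hdac11 highest at 0.68.

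By family the balance of calls differed. Falls outnumbered rises in Kdm (9 fell, 2 rose of 16), Kmt (6 and 1 of 8), Setd (6 and 1 of 10), Kat (5 and 1 of 8), Dnmt (2 and 1 of 3) and Tet (1 and 0 of 3), whereas Hdac had 6 rises and 3 falls of 11 and Ezh had 1 of each. Family medians of the log2 fold change were -0.29 for Kmt, -0.27 for Kdm, -0.17 for Setd, -0.16 for Kat and 0.15 for Hdac. Whether families differed from one another was not tested.

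**Figure D2:**
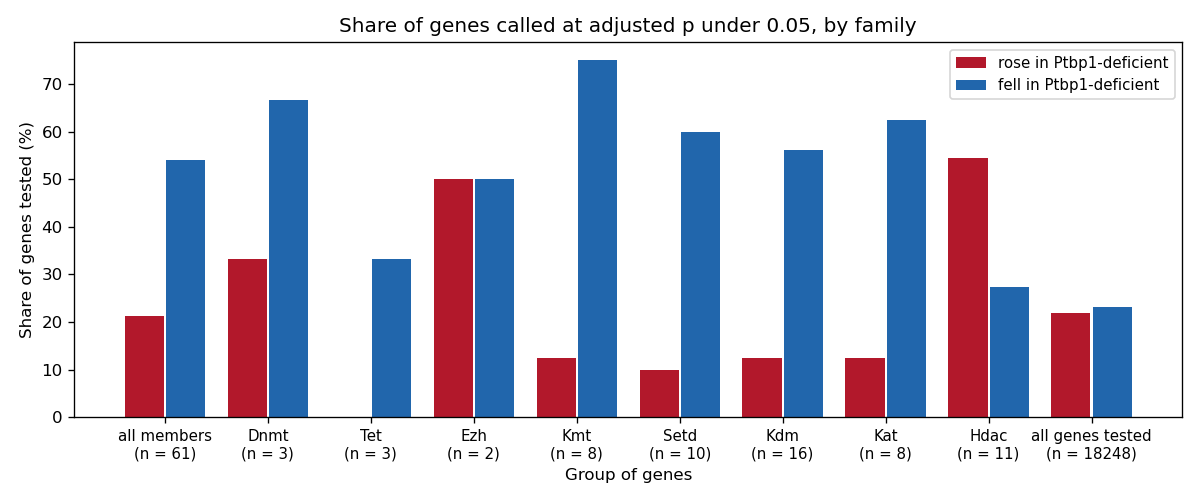
Share of genes that rose (red) and fell (blue) at an adjusted p under 0.05, in percent, for all members, for each family and for all genes tested, with the number of genes under each pair. Falls reach 54.1% of the members and 23.1% of all genes tested.

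Sequences around the start of transcription were examined because Dnmt1, Ezh2 and Kmt5a, enzymes tied to DNA replication, rose together. The letters TTTCCCGC and TTTGGCGC, which E2F factors (regulators of DNA synthesis genes) are known to bind, were searched on both strands of the RefSeq GRCm38.p6 windows from 250 bases before to 50 after each start. Windows were listed for 49 of the 61 members. Of their 71 windows 3 held a match, each in a different member, against 514 of all 32851 windows (1.56%). The matches, in capitals and with up to 11 bases on either side, are shown 5′ to 3′ on the strand of the gene.
Ezh2 (chr6:47595009-47595038, minus strand): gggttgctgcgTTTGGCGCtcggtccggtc
Dnmt1 (chr9:20952574-20952601, minus strand): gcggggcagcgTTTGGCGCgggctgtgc
Kmt5c (chr7:4740011-4740040, plus strand): ggccagaagagGCGGGAAAaagagagcaat
The Ezh2 and Dnmt1 matches lay after the annotated start, that of Dnmt1 in the window of an alternative start, and the Kmt5c match lay upstream in the reverse orientation. Of these 3 genes Ezh2 and Dnmt1 rose and Kmt5c fell, and no listed window of Kmt5a held a match. The letters are a description of the windows and not evidence of binding.

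Among DNA methyltransferases, the maintenance enzyme rose and both de novo enzymes fell. Dnmt1, which copies methylation onto newly made DNA (ENSMUSG00000004099, minus strand of GRCm38 chromosome 9 between 20907209 and 20959888), had 136, 135, 142, 147 and 154 CPM in deficient replicates 1 to 5, against 87.8, 96.9, 104, 107 and 99.6 CPM in WT replicates 1 to 5. The groups did not overlap, and the mean was 144% of WT (log2 fold change 0.53 with an SE of 0.057, adjusted p = 2.2e-05). Dnmt3b, one of the enzymes that set new methylation, had 6.16, 5.37, 4.86, 4.75 and 5.50 CPM in the deficient libraries and 7.56, 8.10, 6.94, 7.55 and 7.83 CPM in the WT libraries. Every deficient value lay below every WT value (log2 fold change -0.51 with an SE of 0.091, adjusted p = 7.9e-04). Dnmt3a, the other de novo enzyme, had 353, 362, 313, 319 and 329 CPM in the deficient libraries and 394, 382, 389, 377 and 349.9 CPM in the WT libraries. Deficient replicates 1 and 2 lay above WT replicate 5, and the fall was slight (log2 fold change -0.18 with an SE of 0.052, adjusted p = 0.016); it did not pass in the FPKM values (adjusted p = 0.35). The antisense gene Dnmt3aos overlaps Dnmt3a, and the use of strand in counting is unknown. The same limit holds for other members, as 26 of the 61 overlap another gene of the count table on either strand. Among them are Ezh2, Kmt5b, Kdm1b, Kdm2b, Kdm6b and Kat5.

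Partners of DNA methylation moved both ways, with 5 rises and 5 falls among 14 genes. Each is 35.7%, whereas over all genes tested 21.9% rose and 23.1% fell. The median log2 fold change of the 14 genes was -0.052. Uhrf1, which recruits Dnmt1 to replicating DNA, averaged 128 ± 6.58 CPM over the deficient libraries and 65.5 ± 11.7 CPM over the WT libraries (log2 fold change 0.97 with an SE of 0.11, adjusted p = 2.7e-05). Hells, a remodeller needed for DNA methylation, and the methyl-DNA reader Mbd2 also rose (log2 fold change 0.58 and 0.32). The CXXC-domain gene Cxxc5 fell to 3.20 ± 0.649 CPM over the deficient libraries, against 11.2 ± 3.40 CPM over the WT libraries (log2 fold change -1.81 with an SE of 0.20, adjusted p = 2.3e-05), as did the reader Mbd1 (log2 fold change -0.22). All 30 cell cycle genes examined beside them rose, Plk1 with a log2 fold change of 1.30 among them. Their median was 1.01, and they summed to 2535 to 2760.1 CPM in the deficient libraries and 1169.6 to 1632 CPM in the WT libraries. Pcna belongs to both lists. Whether the cell cycle genes had a part in the rises of Dnmt1 and Uhrf1 was not tested.

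Of the TET genes only Tet1 passed the test. It had 5.57, 5.19, 4.75, 4.39 and 5.99 CPM in the deficient libraries and 9.60, 8.24, 8.52, 6.87 and 8.31 CPM in the WT libraries. The groups did not overlap (log2 fold change -0.68 with an SE of 0.11, adjusted p = 4.4e-04), and Tet1 is not listed in the FPKM table, which holds genes of at least 1.00 in every library. Tet2, which in myeloid cells is known to restrain inflammatory cytokine genes, had 243, 256, 232, 244 and 257 CPM in the deficient libraries and 295, 254, 232, 234 and 232 CPM in the WT libraries. The groups overlapped and WT replicate 1 stood highest (adjusted p = 0.86). Tet3 averaged 204 ± 16.5 CPM over the deficient libraries and 222 ± 5.88 CPM over the WT libraries (adjusted p = 0.086); without deficient replicates 1 and 2, its log2 fold change was -0.21 (adjusted p = 0.0027), and it passed in 8 of the 21 alternatives.

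The 2 catalytic subunits of Polycomb repressive complex 2, which methylates histone H3 to silence genes, moved in opposite directions. Ezh2, the form that prevails in dividing cells (ENSMUSG00000029687, minus strand of GRCm38 chromosome 6 between 47530139 and 47595341), had 109, 115, 123, 124 and 131 CPM in the deficient libraries and 89.0, 89.3, 95.5, 92.9 and 89.1 CPM in the WT libraries. Its lowest deficient library lay above the highest WT library (log2 fold change 0.40 with an SE of 0.050, adjusted p = 6.0e-05). Ezh1, the form that persists in resting cells, had 58.6, 58.8, 58.1, 61.2 and 59.5 CPM in the deficient libraries and 74.5, 69.1, 73.2, 71.8 and 73.1 CPM in the WT libraries. Here every deficient library lay below every WT library (log2 fold change -0.29 with an SE of 0.034, adjusted p = 4.6e-05). Per length, Ezh2 stood above Ezh1 in both groups, at 46.1 ± 2.49 against 14.6 ± 0.695 FPKM in the deficient group and 38.9 ± 1.97 against 19.0 ± 1.26 FPKM in WT.

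Other subunits of this complex were split as well, with 4 rises and 3 falls among 10 genes (median log2 fold change 0.010). That is 40% and 30%, against 21.9% and 23.1% of all genes tested. Phf19, Rbbp7 and Rbbp4 rose with log2 fold changes of 0.72, 0.42 and 0.26. Phf1, a Polycomb-like accessory factor as is Phf19, fell to 46.2 ± 3.86 CPM over the deficient libraries, against 68.2 ± 2.24 CPM over the WT libraries (log2 fold change -0.56 with an SE of 0.056, adjusted p = 1.3e-05), and Epop and Aebp2 fell as well (log2 fold change -0.77 and -0.21).

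Within the Kmt family, the 3 enzymes of histone H4 lysine 20 separated by the step they catalyse. Kmt5a, which adds the first methyl group and is known for its role in cell division, had 99.2, 99.8, 104, 103 and 104 CPM in the deficient libraries and 81.8, 84.2, 83.2, 87.8 and 92.3 CPM in the WT libraries. The groups did not overlap, with WT replicate 5 closest (log2 fold change 0.25 with an SE of 0.040, adjusted p = 4.4e-04). Kmt5b and Kmt5c, which add the further methyl groups, both fell. Kmt5b had 105, 102, 88.8, 88.8 and 89.6 CPM in the deficient libraries and 139, 135, 131, 129 and 135 CPM in the WT libraries (log2 fold change -0.50 with an SE of 0.055, adjusted p = 2.5e-05). For Kmt5c (ENSMUSG00000059851, plus strand of GRCm38 chromosome 7 between 4740115 and 4747514) the values were 91.9, 91.6, 79.5, 78.8 and 82.8 CPM in the deficient libraries and 149, 139, 137, 139 and 134 CPM in the WT libraries, or 60.9% of WT (log2 fold change -0.72 with an SE of 0.054, adjusted p = 1.8e-06). In both genes deficient replicates 1 and 2 were the highest of their group and still lay below all WT libraries.

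The MLL-type genes, which write methylation of histone H3 lysine 4 at promoters and enhancers, mostly fell. Kmt2e, a relative of these enzymes, changed most, with 159.8, 170.4, 140.5, 141 and 150.0 CPM in the deficient libraries and 215, 211, 207, 212 and 211 CPM in the WT libraries (log2 fold change -0.47 with an SE of 0.053, adjusted p = 3.0e-05). The groups did not overlap. Kmt2e lies across the protein-coding gene Srpk2 on the opposite strand. Kmt2d, Kmt2a and Kmt2c fell by 0.29, 0.28 and 0.26 on the log2 scale, each without overlap between the groups. Kmt2b averaged 289 ± 31.1 CPM over the deficient libraries and 319 ± 15.4 CPM over the WT libraries (adjusted p = 0.12); without deficient replicates 1 and 2 it passed, with a log2 fold change of -0.26 (adjusted p = 0.0026).

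Of 11 measured partners in the complexes of these enzymes 5 rose and 2 fell (median log2 fold change 0.063). That is 45.5% and 18.2%, against 21.9% and 23.1% of all genes tested. Men1 was not analysed here. Dpy30, a core subunit, rose with a log2 fold change of 0.44 (adjusted p = 0.0016), Psip1 with 0.19 and Paxip1 with 0.16, while Ncoa6 and Cxxc1 fell by 0.18 and 0.16 on the log2 scale. Among 20 methyltransferases of other names 6 rose and 5 fell, or 30% and 25%, near the 21.9% and 23.1% of all genes tested. Nsd2, a histone H3 lysine 36 methyltransferase, averaged 133 ± 5.74 CPM over the deficient libraries and 90.0 ± 5.04 CPM over the WT libraries (log2 fold change 0.57 with an SE of 0.047, adjusted p = 3.6e-06), and the heterochromatin enzyme Suv39h1 averaged 38.9 ± 3.07 CPM over the deficient libraries and 26.3 ± 1.85 CPM over the WT libraries (log2 fold change 0.56 with an SE of 0.065, adjusted p = 3.8e-05). Smyd2 rose with a log2 fold change of 0.72, and Nsd3, Ehmt1 and Carm1 fell by 0.18, 0.16 and 0.16 on the log2 scale.

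**Figure D3:**
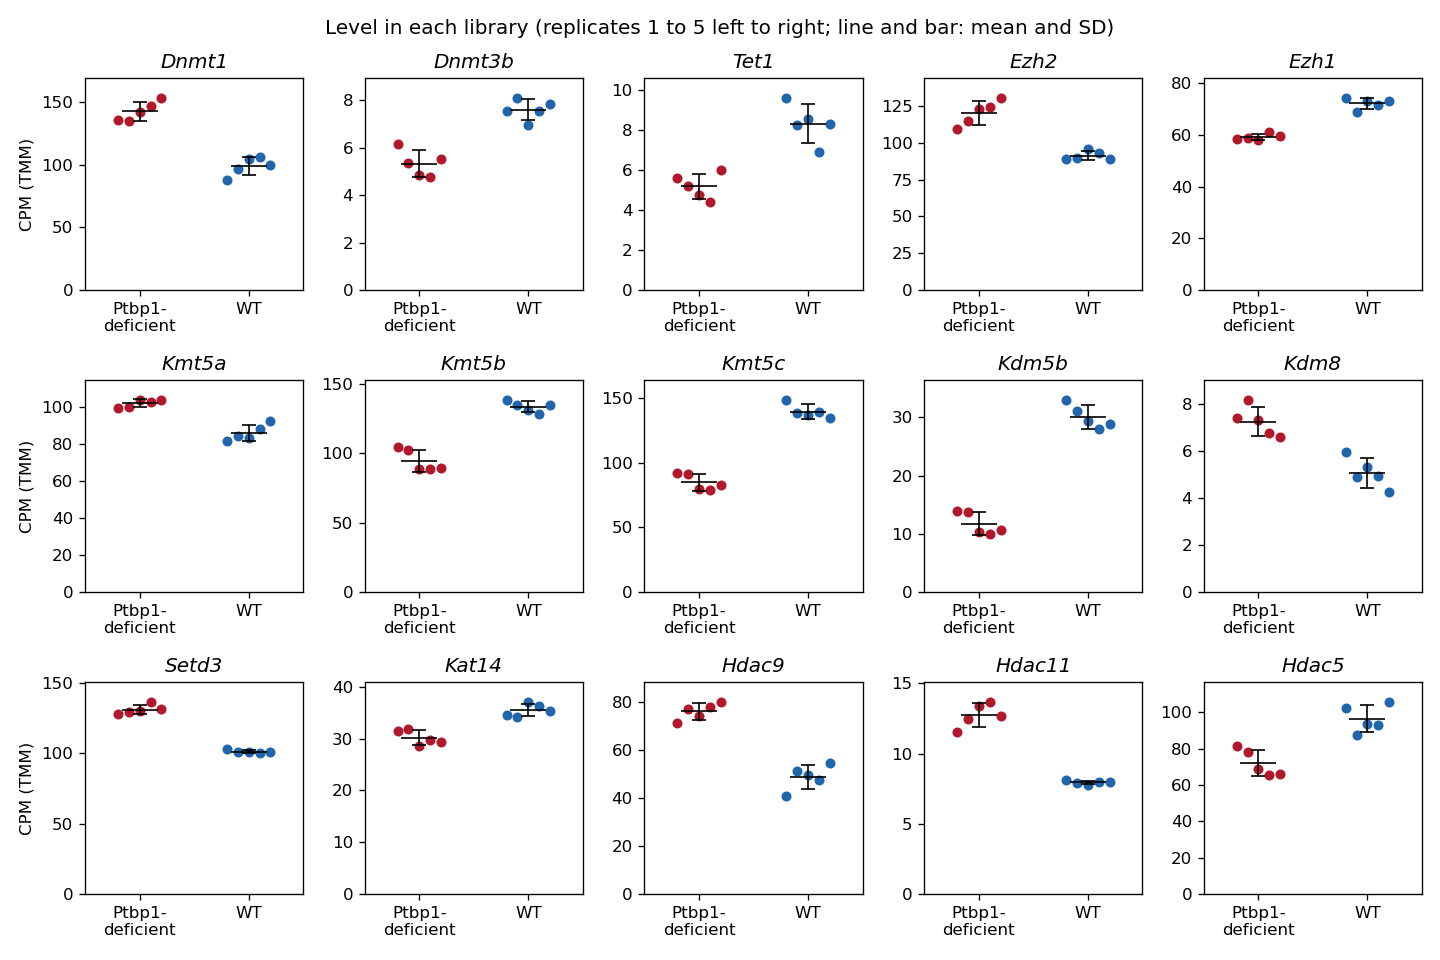
Level in CPM of 15 members in each library, with deficient libraries in red and WT libraries in blue and replicates 1 to 5 from left to right within a group; lines and bars give the mean and SD of 5 libraries. For all 15 genes the deficient points lie wholly above or wholly below the WT points, and deficient replicates 1 and 2 lie above replicates 3 to 5 in Kmt5b, Kmt5c, Kdm5b, Kdm8, Kat14 and Hdac5.

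Setd3 was the only Setd gene that rose. It encodes a methyltransferase of actin histidine and had 128, 129, 130.1, 137 and 132 CPM in the deficient libraries, against 103, 101, 101, 101 and 101 CPM in the WT libraries. The WT values lay close together and all deficient values lay above them (log2 fold change 0.37 with an SE of 0.032, adjusted p = 4.5e-06). Setd2, which trimethylates histone H3 lysine 36 in transcribed genes, had 294, 305, 262, 255 and 259.9 CPM in the deficient libraries and 318, 351, 352, 340.2 and 343 CPM in the WT libraries. The gap between deficient replicate 2 and WT replicate 1 was narrow, but the groups did not overlap (log2 fold change -0.31 with an SE of 0.057, adjusted p = 0.0010).

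Setdb2, of the family that methylates histone H3 lysine 9, had 45.5, 48.3, 41.7, 46.3 and 45.0 CPM in the deficient libraries and 53.3, 59.1, 58.7, 54.2 and 53.7 CPM in the WT libraries (log2 fold change -0.30 with an SE of 0.049, adjusted p = 4.6e-04), again without overlap. Setd4 was scarce, with 4.03, 4.93, 3.64, 3.72 and 3.58 CPM in the deficient libraries and 4.89, 5.35, 5.31, 5.11 and 6.01 CPM in the WT libraries, and deficient replicate 2 lay just above WT replicate 1 (log2 fold change -0.42 with an SE of 0.11, adjusted p = 0.0087). Setd1b, Setd1a and Setd7 fell by 0.25, 0.16 and 0.12 on the log2 scale, and the call on Setd7 was lost in 10 of 21 alternatives. Setdb1, which silences retroelements, averaged 85.9 ± 7.90 CPM over the deficient libraries and 85.1 ± 5.29 CPM over the WT libraries (adjusted p = 0.89), and Setd5 and Setd6 did not pass (adjusted p = 0.087 and 0.061).

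The largest change of any member was in a demethylase. Kdm5b, which removes methylation of histone H3 lysine 4 (ENSMUSG00000042207, plus strand of GRCm38 chromosome 1 between 134560171 and 134635285), had 13.9, 13.8, 10.2, 9.98 and 10.6 CPM in the deficient libraries and 33.0, 31.1, 29.4, 28.0 and 28.8 CPM in the WT libraries. It stood at 39.0% of WT (log2 fold change -1.36 with an SE of 0.11, adjusted p = 2.1e-06), and in the FPKM values at 1.58 ± 0.295 FPKM in the deficient group against 3.96 ± 0.441 FPKM in WT. The groups were far apart, with deficient replicates 1 and 2 the highest of theirs. Its paralog Kdm5a averaged 133 ± 5.11 CPM over the deficient libraries and 142 ± 4.19 CPM over the WT libraries; the groups did not overlap, but the difference did not pass (log2 fold change -0.10, adjusted p = 0.052).

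Kdm6b, the JMJD3 enzyme that removes the Polycomb mark and is known to be induced by inflammatory stimuli in macrophages, had 234, 234, 215, 205 and 192 CPM in the deficient libraries and 236, 318, 264, 277 and 425 CPM in the WT libraries. WT replicate 5, the library richest in macrophage, B cell and neutrophil markers, stood far above its group, while WT replicate 1 lay just above deficient replicate 1 (log2 fold change -0.49 with an SE of 0.14, adjusted p = 0.011). Without WT replicates 1 and 5, which also carried the most macrophage transcripts, the log2 fold change of Kdm6b was -0.41 (adjusted p = 0.0012). The remaining WT libraries still held 1451 to 1499.9 CPM of macrophage markers, above the deficient libraries, and the part of other cells in the fall of Kdm6b was not tested. Kdm7a fell with a log2 fold change of -0.47, Kdm4b with -0.44, Kdm2a and Kdm3a each with -0.33 and Kdm1b with -0.21, and in all 5 the groups did not overlap.

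Only Kdm8 and Kdm2b rose in this family. Kdm8 had 7.41, 8.20, 7.34, 6.75 and 6.60 CPM in the deficient libraries and 5.98, 4.88, 5.32, 4.92 and 4.25 CPM in the WT libraries, without overlap (log2 fold change 0.52 with an SE of 0.10, adjusted p = 0.0018). Kdm2b, which binds unmethylated CpG islands, had 127, 134, 125, 134 and 127 CPM in the deficient libraries and 104, 116, 128, 114 and 119.5 CPM in the WT libraries. WT replicate 3 overlapped the deficient group, and the difference was small (log2 fold change 0.15 with an SE of 0.052, adjusted p = 0.030); the call was lost in 11 of the 21 alternatives, the FPKM values among them (adjusted p = 0.097). Kdm3b, the most abundant of the family per length, had 353, 350.1, 321, 317 and 331 CPM in the deficient libraries and 342, 354, 367, 365 and 316 CPM in the WT libraries, with overlap (adjusted p = 0.37). Kdm1a, Kdm4a and Kdm4c did not pass either, with log2 fold changes of -0.067, -0.086 and -0.068. Of 10 demethylases or partners of other names 8 did not pass and 2 fell, namely Jmjd1c (log2 fold change -0.53 with an SE of 0.074, adjusted p = 1.5e-04) and Jmjd6 (log2 fold change -0.33). These 2 are 20% of the list, near the 23.1% of all genes tested that fell.

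Kdm6a and Kdm5c lie on the X chromosome and are known to escape X inactivation, so their levels were read beside Xist, the RNA made from the inactive X in female cells. Xist stood at 3.34, 2.66, 830.2, 1757 and 1007 CPM in deficient replicates 1 to 5, against 1671, 1768, 1821, 1723 and 864 CPM in WT replicates 1 to 5. It was thus near absent from deficient replicates 1 and 2, and intermediate in deficient replicates 3 and 5 and in WT replicate 5. Kdm6a had 86.1, 88.0, 105, 126 and 111 CPM in the deficient libraries and 148, 153, 152, 150.1 and 131 CPM in the WT libraries (log2 fold change -0.51 with an SE of 0.097, adjusted p = 0.0012). Kdm5c had 129.5, 133, 149.6, 174 and 149 CPM in the deficient libraries and 188, 198, 201, 199 and 170.0 CPM in the WT libraries (log2 fold change -0.38 with an SE of 0.078, adjusted p = 0.0020). In both genes the 2 libraries lowest in Xist were the lowest, deficient replicate 4 was the highest of its group, and WT replicate 5 was the lowest of its group. The groups overlapped for Kdm5c and not for Kdm6a.

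With the Xist level as a covariate, a fit added after these values were seen, the log2 fold change was -0.27 for Kdm6a (adjusted p = 4.4e-04) and -0.19 for Kdm5c (adjusted p = 0.0037). These are 0.54 and 0.50 times the values without the covariate. Leaving out deficient replicates 1 and 2 gave -0.37 for Kdm6a (adjusted p = 0.0028) and -0.28 for Kdm5c (adjusted p = 0.011). In deficient replicate 4, whose Xist level was within the range of WT replicates 1 to 4, Kdm6a stood at 126 CPM and Kdm5c at 174 CPM, below those 4 WT libraries in both genes. That comparison rests on a single library. Xist was near absent only in deficient libraries, and the sex was not given. The parts of sex and of Ptbp1 deficiency in these falls therefore cannot be told apart. Of the other X-linked members, Hdac6 and Hdac8 were not lowest in deficient replicates 1 and 2, although WT replicate 5 was the lowest of its group for both. Hdac8 fell (log2 fold change -0.34) and Hdac6 rose (0.19), and with the Xist level as a covariate their log2 fold changes were -0.36 and 0.23. Among 2 further genes known to escape, chosen after the Xist values were seen, Eif2s3x had 101, 96.1, 130.0, 144 and 129 CPM in the deficient libraries and 116, 132, 136, 134 and 105 CPM in the WT libraries, lowest in deficient replicates 1 and 2 as well, and Ddx3x did not follow Xist, with 523 to 538 CPM in the deficient group and 482 to 637 CPM in WT.

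**Figure D4:**
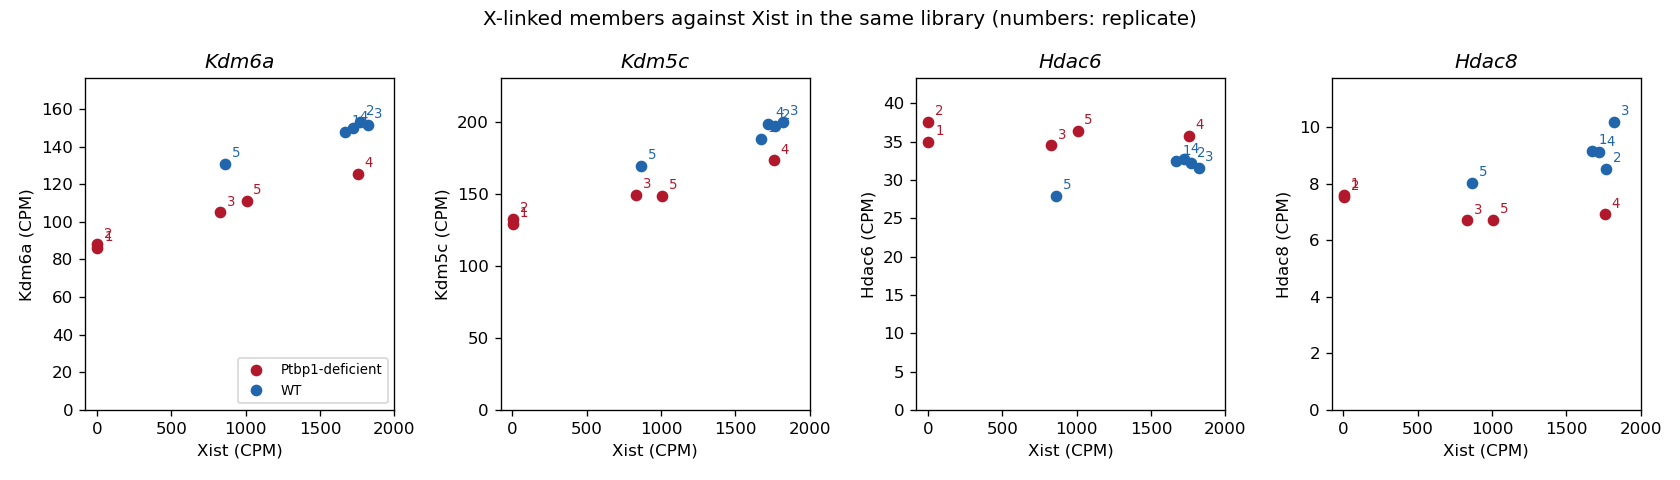
Level in CPM of the 4 X-linked members against the Xist level in CPM of the same library; red points are deficient and blue points WT libraries, and numbers give the replicate. Kdm6a and Kdm5c are lowest in deficient replicates 1 and 2, where Xist is at 3.34 and 2.66 CPM, while Hdac6 and Hdac8 are not. In all 4 genes WT replicate 5 is the lowest WT library.

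Acetyltransferase genes changed little, and mostly downward. Kat14, an acetyltransferase subunit of the ATAC complex, had 31.5, 31.8, 28.6, 29.7 and 29.3 CPM in the deficient libraries and 34.5, 34.2, 37.1, 36.3 and 35.3 CPM in the WT libraries, without overlap (log2 fold change -0.24 with an SE of 0.045, adjusted p = 0.0012). Kat8, which acetylates histone H4 lysine 16, had 18.0, 19.9, 18.9, 17.6 and 19.1 CPM in the deficient libraries and 20.6, 23.0, 22.8, 19.5 and 24.0 CPM in the WT libraries, with deficient replicate 2 above WT replicate 4 (log2 fold change -0.23 with an SE of 0.066, adjusted p = 0.013). Kat6a, a MYST-type enzyme needed for blood stem cells, had 212, 213, 177, 182 and 179 CPM in the deficient libraries and 212, 211, 222, 211 and 231 CPM in the WT libraries. Its deficient replicates 1 and 2 lay within the WT range and its deficient replicates 3 to 5 below it (log2 fold change -0.17 with an SE of 0.062, adjusted p = 0.038). Without those first 2 libraries the log2 fold change of Kat6a was -0.28, which is 1.6 times the value with them, and the call was lost in 9 of the 21 alternatives.

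Kat7, the family's most abundant member per length at 21.4 ± 1.02 FPKM in the deficient group and 25.0 ± 0.563 FPKM in WT, fell to 87.8, 82.4, 87.0, 85.1 and 86.5 CPM in the deficient libraries, against 91.2, 97.9, 99.8, 97.1 and 96.0 CPM in the WT libraries (log2 fold change -0.17 with an SE of 0.036, adjusted p = 0.0027). Kat2b, also called PCAF, was the one that rose, with 64.7, 71.1, 62.8, 68.7 and 66.4 CPM in the deficient libraries and 59.0, 61.3, 62.2, 58.1 and 63.4 CPM in the WT libraries; the groups overlapped (log2 fold change 0.13 with an SE of 0.044, adjusted p = 0.026), and the call was lost in 10 of the 21 alternatives, the FPKM values among them (adjusted p = 0.58). Kat5 fell by 0.14 on the log2 scale, a call lost in 4 of 21 alternatives, and Kat2a and Kat6b did not pass. Among 30 acetyltransferases and partners of other names 14 fell and 2 rose (median log2 fold change -0.12). That is 46.7% and 6.67%, against 23.1% and 21.9% of all genes tested. Brpf3, a scaffold of MYST enzymes, fell to 42.0 ± 1.59 CPM over the deficient libraries, against 63.3 ± 2.72 CPM over the WT libraries (log2 fold change -0.59 with an SE of 0.042, adjusted p = 1.2e-06), and Epc1 and Sgf29 fell as well (log2 fold change -0.43 and -0.55), while Hat1, which acetylates newly made histone H4, and Ncoa1 rose (log2 fold change 0.47 and 0.24).

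Deacetylase genes were the one family with more rises than falls in the counts, 6 against 3; in the FPKM values 2 rose and 3 fell. Hdac11, the sole class IV enzyme, had 11.6, 12.5, 13.4, 13.7 and 12.7 CPM in the deficient libraries and 8.13, 7.89, 7.79, 8.00 and 7.99 CPM in the WT libraries, a tight WT group that lay wholly below (1.60-fold, log2 fold change 0.68 with an SE of 0.065, adjusted p = 9.1e-06). Hdac9, of class IIa, had 71.0, 77.0, 74.3, 77.8 and 80.1 CPM in the deficient libraries and 40.9, 51.2, 49.6, 47.4 and 54.7 CPM in the WT libraries, again without overlap (1.56-fold, log2 fold change 0.64 with an SE of 0.069, adjusted p = 2.1e-05). The class IIa genes Hdac5 and Hdac7 went the opposite way, each without overlap. Hdac5 had 81.5, 78.0, 68.9, 65.5 and 66.0 CPM in the deficient libraries and 102, 87.4, 93.6, 92.8 and 106 CPM in the WT libraries (log2 fold change -0.42 with an SE of 0.074, adjusted p = 7.0e-04). Hdac7 had 47.8, 48.4, 43.0, 41.9 and 42.2 CPM in the deficient libraries and 60.7, 55.9, 52.8, 51.6 and 71.0 CPM in the WT libraries, where WT replicate 5 was the highest (log2 fold change -0.39 with an SE of 0.085, adjusted p = 0.0031); it overlaps the coding gene Slc48a1 on the opposite strand. Hdac4 averaged 38.9 ± 4.13 CPM over the deficient libraries and 40.6 ± 3.33 CPM over the WT libraries (adjusted p = 0.55).

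The class I genes Hdac1, Hdac2 and Hdac3, catalytic subunits of the large corepressor complexes, all rose slightly and Hdac8 fell; the groups overlapped for Hdac1 alone of these 4. Hdac3 had 56.7, 61.4, 59.8, 62.8 and 61.0 CPM in the deficient libraries and 48.8, 49.7, 55.8, 52.7 and 45.9 CPM in the WT libraries (log2 fold change 0.25 with an SE of 0.053, adjusted p = 0.0023). Hdac1, with the highest FPKM of the family, had 110.4, 107, 108, 109.7 and 109 CPM in the deficient libraries and 90.6, 78.8, 84.0, 93.1 and 111 CPM in the WT libraries (log2 fold change 0.25 with an SE of 0.075, adjusted p = 0.017); WT replicate 5 lay above the deficient libraries. Hdac2 averaged 65.3 ± 2.63 CPM over the deficient libraries and 58.9 ± 1.99 CPM over the WT libraries (log2 fold change 0.15 with an SE of 0.040, adjusted p = 0.010), and all 3 of these rises, like that of Hdac6, did not pass in the FPKM values. Hdac8 had 7.61, 7.54, 6.71, 6.92 and 6.72 CPM in the deficient libraries and 9.16, 8.53, 10.2, 9.11 and 8.04 CPM in the WT libraries (log2 fold change -0.34 with an SE of 0.083, adjusted p = 0.0054), and Hdac10 did not pass (log2 fold change -0.22, adjusted p = 0.075). Hdac10 passed in 8 of the 21 alternatives, with -0.37 (adjusted p = 0.0018) without deficient replicates 1 and 2.

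Genes of the complexes in which these deacetylases work, together with the sirtuins, showed 7 rises and 8 falls of 24 (median log2 fold change 0.083). That is 29.2% and 33.3%, against 21.9% and 23.1% of all genes tested. The NuRD subunits Mta1 and Gatad2a and the corepressor Sin3b rose (log2 fold change 0.25, 0.20 and 0.13). Chd3, a remodeller of the same complex, fell to 296 ± 29.3 CPM over the deficient libraries, against 428 ± 13.6 CPM over the WT libraries (log2 fold change -0.53 with an SE of 0.063, adjusted p = 4.5e-05), and Sirt1 fell too (log2 fold change -0.20).

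Levels of different genes can be compared only per length, for which the deposited FPKM values were used; they list 60 members, all but Tet1. WT means ran from 2.02 FPKM for Kdm8 to 63.9 FPKM for Setd2, with a median of 22.5. Setd2 at 49.9 ± 4.15 FPKM in the deficient group and 63.9 ± 2.75 in WT, Kdm3b at 53.4 ± 3.05 deficient and 59.5 ± 3.87 WT, Kmt5c at 31.5 ± 10.3 deficient and 55.2 ± 12.7 WT, and Hdac1 at 57.5 ± 2.03 deficient and 51.0 ± 9.96 WT were the 4 highest in WT. The order of Kdm3b, Kmt5c and Hdac1 does not go beyond their spread. Within the Dnmt family Dnmt3a was highest, at 39.0 ± 4.51 FPKM deficient and 42.8 ± 6.21 FPKM WT, and Dnmt3b lowest, at 1.35 ± 0.180 deficient and 2.04 ± 0.180 WT. Of the 45 members that were called in the counts and listed in the FPKM table, 38 were called in the same direction there with limma on log2(FPKM + 1). In that fit 7 of the 60 listed members rose and 37 fell, against 20.3% and 27.2% of the 11968 genes listed. Rises made up 15.9% of the member calls there, compared with 28.3% in the counts. Over all genes the share of rises among the calls was also lower, at 42.7% there and 48.7% in the counts. Of the calls that held, several moved by more than 1.5 times. The log2 fold change was 0.24 for Ezh2, 0.15 for Kmt5a, 0.33 for Kdm8, 0.42 for Hdac9, -0.41 for Kat14, -0.30 for Kat6a and -0.18 for Setd7 on the log2(FPKM + 1) scale. With a pseudocount of 0.1 in place of 1, the moves of Kdm8 and Hdac9 stayed within 1.5 times. That of Kdm1b then went beyond it (log2 fold change -0.34).

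**Figure D5:**
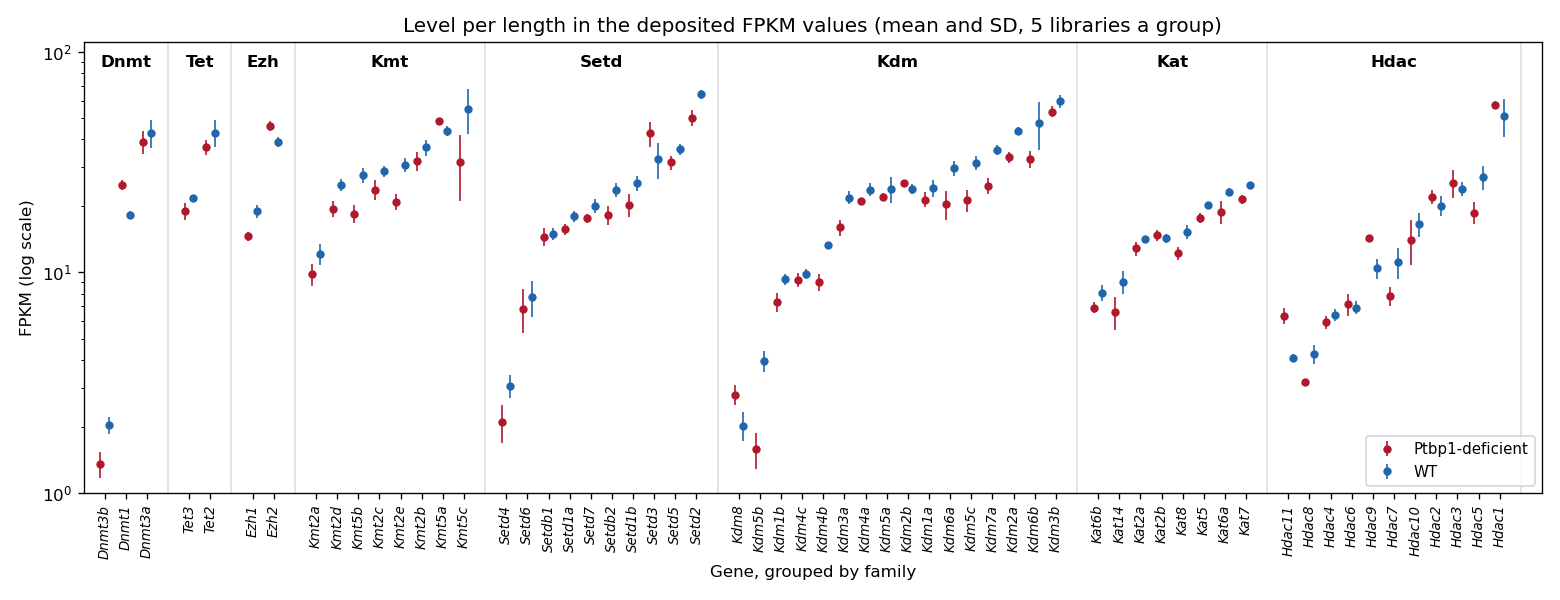
Deposited FPKM (log axis) of the 60 listed members, ordered within each family by the WT mean; points and bars give the mean and SD of 5 deficient (red) and 5 WT (blue) libraries. Setd2 is highest in WT at 63.9 FPKM and Kdm8 lowest at 2.02 FPKM.

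Members had much exon sequence: the exons of a member, merged over all its annotated transcripts, covered a median of 6954 bases, against 3328 over all genes tested. Such a merged length can exceed that of any single transcript. Members that fell had a median of 8225 bases, members that rose 5307 and members not called 9596. Across all genes averaging at least 1 CPM, split into 10 classes of equal size by exon length, 12.9% fell and 26.3% rose in the shortest class, whereas 37.9% fell and 20.4% rose in the longest. Among the 9217 genes at least as abundant and as long as the lowest members in each respect, 27.3% fell and 29.4% rose. The part of length in the members' falls was not tested.

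The deficient libraries were not uniform for these genes. In 35 of the 61 members deficient replicates 1 and 2 both lay above deficient replicates 3, 4 and 5, and in 8 they both lay below, against 21.3% and 21.4% of all genes tested. Of those 35 members 22 fell, 12 were not called and 1 rose. Replicates 1 and 2 are also the libraries near 0 in Xist, had the fewest gene counts of the deficient group, and carried the lowest macrophage marker sums, 478 and 460 CPM, against 960 to 1120 CPM in deficient replicates 3 to 5. Without them 39 members fell and 10 rose, and over all 18642 genes then tested 3846 fell and 3590 rose. Without WT replicates 1 and 5, 35 members fell and 12 rose, and of all 18513 genes then tested 4129 fell and 4019 rose. Which of these differences bears on the members' levels was not tested.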

How the data were processed

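Total RNA of 10 mouse dendritic cell samples was taken with TRIzol, and 150 bp read pairs came from an Illumina HiSeq, per the labels' protocols. The submitters' processing notes name HISAT2, StringTie, DESeq2 and build GRCh38, although the identifiers are those of mouse genes; the counter and strand setting were not stated.

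The authors deposited raw counts per gene, whose 19178 gene rows hold at least 2 counts in every library; 5 further rows that name no gene were left out (together 25.9% to 30.6% of a library's counts, of which those with no feature were 17.2% to 22.2%). The deposited FPKM values, scaled by the authors to length and depth, have a minimum of 1.00; 10 repeated identifiers were summed. GENCODE M21 (GRCm38) gave symbols for 19035 identifiers and left 143 without.

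Counts were filtered with filterByExpr (930 genes removed), scaled by TMM and tested with edgeR 4.0.16 in R 4.3.3, with genotype as the only term, after the script was tested on simulated data. The SE is the log2 fold change over the square root of F. The 21 alternatives were RLE and upper-quartile scaling, DESeq2 1.42.0, no low-count filter, at least 1 CPM in 5 libraries, a replicate block, limma 3.58.1 on FPKM (pseudocount 1 or 0.1), each library left out, deficient replicates 1 and 2 or WT replicates 1 and 5 left out, and the Xist level as a covariate, which was chosen after seeing the data. No pair of libraries of the same group agreed within sampling noise. Deficient replicates 1 and 2 came closest, with a chi-square per degree of freedom of 5.13, against 8.20 to 96.7 in the other pairs.

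The members and lists were chosen with earlier results of these data known. Values in every library are given per family for up to 3 rises and 3 falls, those of greatest size that averaged at least 1 CPM in the higher group, and for the member with the highest FPKM. Other lists are represented by up to 3 called genes in each direction with the smallest adjusted p; for marker and cell cycle lists 1 or none is named. Some genes that this rule would name are not reported here.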

Additional observations from a re-analysis of the deposited data

Results flagged for a closer look

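In 5 of 122 groups of 5 libraries, 1 library stood apart from the other 4 by over 0.71 of the group's whole range, and chance alone flags about 1 in 20 groups. All 5 were WT libraries. Kdm6a in WT replicate 5 stood at 131 CPM, against 148 to 153 CPM in the other WT libraries. Hdac6, also X-linked, was at 28.0 CPM in WT replicate 5, against 31.6 to 32.7 CPM in the others. Kmt2b in WT replicate 5 was at 291 CPM, against 323 to 328 CPM. For Setd3, WT replicate 1 was at 103 CPM and the others at 100.7 to 101 CPM. Kdm3a in WT replicate 2 was at 83.2 CPM, against 73.2 to 75.8 CPM.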

How the results depend on the processing

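Of the members called, 29 of the 33 that fell and 7 of the 13 that rose kept their direction and their call in each of the 21 alternatives that gave them a value; the FPKM fits gave none for Tet1. The exceptions were the falls of Dnmt3a, Kat5, Kat6a and Setd7 and the rises of Hdac1, Hdac2, Hdac3, Hdac6, Kat2b and Kdm2b. Of the 15 members not called, 10 fell in some alternatives: Hdac10 and Tet3 in 8 each, Kdm4a and Setd6 in 7 each, Kdm5a in 6, Kmt2b in 5, Kat6b and Setd5 in 4 each, Kat2a in 3 and Kdm3b in 2. Members not called that changed sign were Setdb1, at -0.030 with upper-quartile scaling, -0.041 and -0.044 in the FPKM values with pseudocounts of 1 and 0.1, -0.080 without deficient replicates 1 and 2, -0.042 without WT replicates 1 and 5 and -0.060 with the Xist level as a covariate, and Tet2, at 0.036 without WT replicates 1 and 5. Leaving out 1 library gave log2 fold changes of -0.035 to 0.043 for Setdb1 and -0.051 to 0.059 for Tet2.

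In the FPKM values 2435 of all genes listed rose with either pseudocount, and 7 members rose, among them 2 Hdac (with 3 falls), 1 Kdm and 0 Kat genes, while 1 Dnmt gene fell; fewer genes are listed there. With upper-quartile scaling 0 Kat and 1 Kdm genes rose and 2 Tet genes fell, and with a floor of 1 CPM 2 Tet genes fell. Upper-quartile scaling gave 11 rises and 40 falls among the members. Over all 18248 genes tested it gave 3456 rises and 4845 falls, against 3998 and 4216 with TMM. Without deficient replicates 1 and 2, and likewise with the Xist covariate, 0 Kat and 1 Kdm genes rose and 2 Tet genes fell; without WT replicates 1 and 5, 1 Kdm gene rose. Leaving out 1 library at a time, 11 to 13 members rose and 30 to 40 fell. Over all 18382 to 18477 genes then tested, 3558 to 4143 rose and 3667 to 4225 fell. In the same fits 0 to 1 Kat genes rose and 3 to 5 fell, 1 to 2 Kdm genes rose, and 1 to 2 Tet genes fell. The cause of these moves was not tested.

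The replicate numbers did not pair the libraries: deviations of same-numbered libraries correlated at -0.24 to 0.28. With the replicate block 11 members rose and 30 fell, with 0 rises and 3 falls among Kat genes and 1 rise among Kdm genes. Over all 18248 genes tested 3768 rose and 3770 fell with the block, against 3998 and 4216 without it. The 5 calls lost were those on Kat2b, Kdm2b, Kat5, Kat6a and Setd7, and no member changed direction. Every member held at least 245 counts in every library.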
